A study of Homo sapiens with 6 samples.

Results

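The pentose phosphate pathway was represented by 7 genes given by name, *PGD*, *PGLS*, *TKT*, *TKTL1*, *TALDO1*, *RPIA* and *RPE*, and their rows were taken from a table of read counts for 59050 gene symbols. The table used here has no row for *PGLS*, which was not analysed here, so 6 of the 7 genes had values, and 5 of them were among the 18126 genes that passed the filter on low counts. The cells were of the established human embryonic stem cell line HUES8, kept undifferentiated in mTeSR1 on Matrigel (PSC, labelled ES), induced toward endoderm for 2 days (D2), or differentiated to definitive endoderm (DE, with no day in the labels). RNA-seq was carried out on 2 libraries per stage. Induction used DMEM-F12 with 0.2% BSA and 100 ng/mL activin A, a TGF-beta family ligand. It included the GSK3 inhibitor CHIR99021 for 24 h, which by the labels was then left out for 2 to 4 days. This schedule stands in the labels of both D2 and DE, although it runs beyond the 2 days of D2. The study's methods give a different range of days without CHIR99021. The labels give CHIR99021 as 2.5 mM, where the study's methods give the same figure in µM. All 6 libraries came from this 1 line without genetic modification, and the labels do not say whether the 2 libraries of a stage came from separate cultures, so p-values measure only the spread between these samples, which may be technical.

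The pathway branches from glycolysis at glucose 6-phosphate. Its oxidative branch yields NADPH, used for reductive synthesis and antioxidant defence, and a pentose phosphate. Its non-oxidative branch interconverts pentose phosphates with glycolytic intermediates in reversible steps, and ribose 5-phosphate from either branch feeds nucleotide synthesis. *PGLS* and *PGD* encode enzymes of the oxidative branch, 6-phosphogluconolactonase and 6-phosphogluconate dehydrogenase. *RPIA* and *RPE* encode the isomerase and the epimerase that act on ribulose 5-phosphate, and *TKT* and *TALDO1* encode transketolase and transaldolase, which exchange carbon units between sugar phosphates. *TKTL1* encodes a transketolase-like protein. Pathway enzymes outside these genes and the lists described further on were not analysed here. Rapidly dividing pluripotent cells are known for a high demand for nucleotides and NADPH.

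The 2 PSC libraries held 12351684 and 15849872 counts, those of D2 15000970 and 14843365, and those of DE 15490713 and 15970973. Transcripts of mtDNA took 29.4% and 27.6% of the counts in PSC, 25.8% and 25.7% at D2, and 20.9% and 22.8% in DE, a fall that runs with the stages, and the calls of the 5 tested pathway genes were the same when mtDNA-encoded genes were left out. Stage markers followed the labels. *SOX17*, a transcription factor of definitive endoderm, was at 0 and 0.386 CPM (read counts normalised to library size with TMM factors) in PSC, 34.4 and 28.8 CPM at D2, and 232 and 188 CPM in DE. *TBXT*, a primitive streak factor, was at 1.67 and 1.22 CPM in PSC, 95.2 and 104 CPM at D2, and 1.46 and 1.93 CPM in DE. *POU5F1*, a pluripotency factor, was at 420 and 540 CPM in PSC, 581 and 513 CPM at D2, and 131 and 135 CPM in DE. All 6 definitive endoderm markers were higher in DE than in PSC with an adjusted p under 0.05 in edgeR's quasi-likelihood test, adjusted by Benjamini-Hochberg, and 4 of the 5 pluripotency markers were lower, with *LIN28A* higher. Some markers of other lineages also moved with DE. Of the 3 neural markers, *PAX6* rose from 1.93 and 2.19 CPM in PSC to 148 and 147 CPM in DE, whereas *SOX1* and *NEUROG2* had at most 3 counts in any library, and the summed neural list was at 2.28 and 2.45 CPM in PSC and 148 and 147 CPM in DE. Of the 4 trophoblast and amnion markers, *GATA3* rose from 0.438 and 0.901 CPM to 100 and 84.5 CPM, *KRT7* fell to 0 counts, *CDX2* had 0 and 1 count in DE, and *TFAP2A* had 4 and 12 counts in PSC and 16 and 9 in DE. The sum of this list was 2.19 and 2.51 CPM in PSC and 101 and 85.1 CPM in DE. Of the 4 mesoderm markers, the 3 that passed the filter were higher in DE, at low counts: *TBX6* had 4 and 11 counts in PSC and 28 and 15 in DE, *HAND1* 4 and 1 against 24 and 23, and *TWIST1* 0 and 0 against 23 and 16, with *MESP1* at 0 in both stages. This list summed to 0.701 and 0.772 CPM in PSC and 4.57 and 3.47 CPM in DE. Of the 3 markers of extraembryonic endoderm, *AFP* fell from 19 and 29 counts to 1 and 1, *SOX7* and *TTR* did not pass the filter, and the list summed to 2.28 and 2.32 CPM in PSC and 0.122 and 0.322 CPM in DE. Of the 4 markers of fibroblast feeders, *THY1*, which stem cells also express, fell from 80.1 and 92.0 CPM to 4.26 and 3.41 CPM, *COL1A1* rose from 12.6 and 12.4 CPM to 37.0 and 32.6 CPM, and *COL3A1* and *DCN* had at most 1 count in any library. The list summed to 92.7 and 104 CPM in PSC and 41.3 and 36.0 CPM in DE. Whether these markers come from cells of other lineages or from the endoderm cells themselves was not tested, nor was any part of such cells in the pathway values.

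The start regions of the pathway genes are shown first, since they are a feature that the choice of genes did not use. The sequences come from RefSeq on GRCh38.p14, in windows of 300 bases from 250 bases before to 50 bases after each gene's RefSeq start, and all 7 genes had an entry. The letters CCAAT, searched on both strands, were present in the windows of *PGD*, *TKT*, *TALDO1*, *RPIA* and *RPE*, the 5 genes that passed the filter, and in 34.6% of all 35116 windows. That share includes windows of genes that did not pass the filter, so it is no like-for-like background for these 5. All motifs searched, apart from the antioxidant response element described next, were added after the files were seen. Neither *PGLS* nor *TKTL1*, for which 2 starts are listed, had these letters in its windows. The matches upstream of each start are printed 5′ to 3′ on the strand of the gene, with the match in capitals, CCAAT or its reverse complement ATTGG, and 10 bases on each side.
*PGD* (chr1:10398948-10398972, plus strand): tcggggagagCCAATggtgtggctt
*PGD* (chr1:10398987-10399011, plus strand): cttccattcgATTGGccggcgccga
*TALDO1* (chr11:747386-747410, plus strand): ccgctttccgATTGGcagccgcccg
*TKT* (chr3:53256211-53256235, minus strand): tgttattattATTGGtgtgtgtggt
*RPIA* (chr2:88691524-88691548, plus strand): gcattatgggATTGGtagtccagac
*RPE* (chr2:210002586-210002610, plus strand): aactgcgcgcCCAATcggggtgacg

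The core of the antioxidant response element, TGANNNNGC on both strands, through which the transcription factor NRF2 acts on redox genes, was found in 41.8% of all windows, so a match is common. *PGD* had 2 matches, shown here because *PGD* was the only gene of the oxidative branch among the 7 with values, and *RPE* had 1. The window of *PGLS* also held the letters, as did 1 of the 2 windows of *TKTL1*.
*PGD* (chr1:10398853-10398881, plus strand): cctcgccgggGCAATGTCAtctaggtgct
*PGD* (chr1:10398883-10398911, plus strand): ggcgctccacTGATCCGGCccccgggggt
*RPE* (chr2:210002477-210002505, plus strand): ggcggacggcTGACAGCGCcccaccccag
The windows of *TKT*, *TALDO1* and *RPIA* did not hold these letters. The letters GGGCGG, found in 45.0% of all windows, were in those of *PGD*, *TKT*, *TALDO1*, *RPIA*, *RPE* and *PGLS*. The letters TATAAA (11.5% of all windows) and CACGTG (7.26%) were in none of the windows of the 7 genes. The 250 bases upstream of the start were 68.4% G and C in *PGD*, 70.4% in *TKT*, 78.4% in *TALDO1*, and 64.4% in *RPE*, and for this share *TALDO1* stood at the 94.8th and *RPIA* at the 54.0th percentile of all windows. These matches are descriptions of the letters and say nothing about binding.

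Across differentiation, the genes of the pathway moved by less than 2-fold and not in 1 direction. *TALDO1* and *RPE* were lower in DE than in PSC by log2 fold changes of -0.64 and -0.68, *TKT* by -0.48, whereas *PGD* fell at D2 and was back near its PSC level in DE. *RPIA* was higher in DE than at D2. *TKTL1* had at most 5 counts in any library. The RNA was taken from whole cultures, so fewer cells that express a gene and less RNA per cell cannot be told apart.

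**Figure D1:**
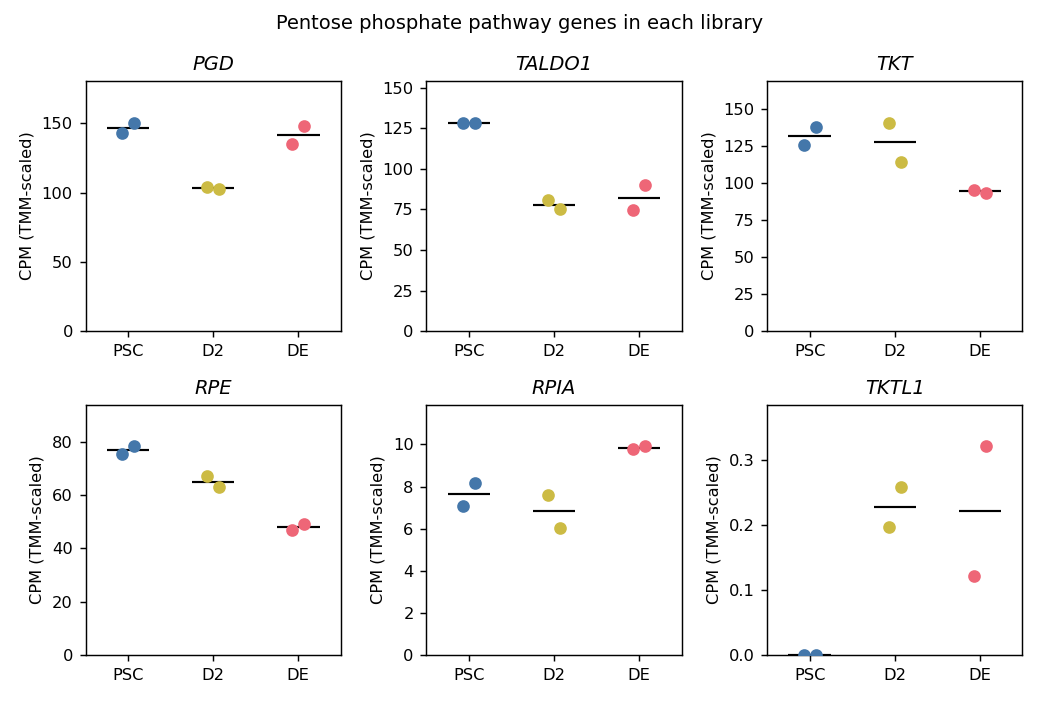
Expression of the 6 pathway genes with values, in TMM-scaled CPM on a linear axis from 0 with its own range for each gene, by stage. Points are the 2 libraries of a stage and bars their mean. *TALDO1* drops between PSC and D2, *TKT* and *RPE* are lowest in DE, *PGD* dips at D2, and *TKTL1* stays below 0.33 CPM.

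*PGD*, chromosome 1 of GRCh38 from 10398592 to 10420511 on the plus strand, had 143 and 150 CPM in PSC, 104 and 103 CPM at D2, and 135 and 148 CPM in DE. Both D2 libraries lay below all other libraries, and the PSC and DE libraries overlapped. The fall at D2 against PSC was a log2 fold change of -0.50 (standard error 0.0946, edgeR adjusted p = 6.4e-05, lower in both D2 libraries). The rise from D2 to DE was 0.45 (standard error 0.0942, edgeR adjusted p = 0.00017, higher in both DE libraries). The net change from PSC to DE was -0.05 (95% confidence interval -0.24 to 0.14, edgeR adjusted p = 0.643), and its sign was not stable, being 0.039 with library size alone as the scaling and -0.22 with the upper quartile (edgeR adjusted p = 0.040), which shifted the median of all genes by -0.172.

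*TALDO1*, chromosome 11 from 747415 to 765012 on the plus strand, had 128 and 128 CPM in PSC, 80.9 and 75.1 CPM at D2, and 74.6 and 89.9 CPM in DE. Both PSC libraries were above the 4 later ones, which overlapped each other. The log2 fold change at D2 against PSC was -0.72 (95% confidence interval -0.92 to -0.51, edgeR adjusted p = 9.4e-07), the largest fall of a pathway gene at this step. In DE against PSC it was -0.64 (standard error 0.0999, edgeR adjusted p = 2.4e-06), and between D2 and DE it was 0.08 (95% confidence interval -0.13 to 0.28, edgeR adjusted p = 0.534).

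*TKT*, chromosome 3 from 53224712 to 53256052 on the minus strand, had 126 and 138 CPM in PSC, 141 and 115 CPM at D2, and 95.7 and 93.2 CPM in DE. The D2 libraries spanned the PSC libraries and were farther apart than those of the other stages, and both DE libraries were lowest. The log2 fold change at D2 against PSC was -0.05 (95% confidence interval -0.26 to 0.16, edgeR adjusted p = 0.721). In DE it was -0.48 against PSC (standard error 0.103, edgeR adjusted p = 0.00016) and -0.43 against D2 (standard error 0.102, edgeR adjusted p = 0.00065). The change against D2 rested in part on 1 library, since without D2 replicate 1 it was -0.27 (edgeR adjusted p = 0.0693), whereas the change against PSC kept an adjusted p of at most 0.00749 over the alternatives run.

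*RPE*, chromosome 2 from 210002565 to 210022260 on the plus strand, had 75.6 and 78.3 CPM in PSC, 67.1 and 63.0 CPM at D2, and 46.8 and 49.3 CPM in DE. The libraries of the 3 stages did not overlap, and each later stage was lower. The log2 fold change in DE was -0.68 against PSC (standard error 0.0966, edgeR adjusted p = 5.6e-07) and -0.44 against D2 (standard error 0.0965, edgeR adjusted p = 0.00034). At D2 against PSC it was -0.24 (standard error 0.0951, edgeR adjusted p = 0.0345), and this call was lost with DESeq2 (adjusted p = 0.0547), with library size alone (0.332), with no filter on low counts (0.0568), with at least 10 counts in every library (0.0611), with the replicate number as a block (0.0593) and without any 1 of the PSC or D2 libraries (0.0739 to 0.224). Of the 3523 exon bases of *RPE*, 840 (23.8%) are shared with *KANSL1L* on the opposite strand, and the strand setting of the counting is not stated, so reads of the 2 genes cannot be told apart there. *KANSL1L* had 311 and 397 counts in PSC, 260 and 267 at D2, and 541 and 475 in DE, so it was higher in DE where *RPE* was lower.

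*RPIA*, chromosome 2 from 88691673 to 88750929 on the plus strand, was the least abundant of the 5 tested genes, with 7.10 and 8.17 CPM in PSC, 7.61 and 6.02 CPM at D2, and 9.80 and 9.91 CPM in DE. Both DE libraries lay above the other 4, among which the stages overlapped. The log2 fold change from D2 to DE was 0.53 (standard error 0.169, edgeR adjusted p = 0.0083), with an adjusted p of 0.0563 with DESeq2 and 0.125 without D2 replicate 2. In DE against PSC it was 0.36 (95% confidence interval 0.01 to 0.71 before adjustment), which missed the threshold after adjustment over all genes (edgeR adjusted p = 0.0626). These values rest on 81 to 161 counts per library, against 767 to 2338 for *PGD*, *TKT*, *TALDO1* and *RPE*.

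*TKTL1*, chromosome X from 154295795 to 154330350 on the plus strand, had 0 counts in both PSC libraries, 3 and 4 at D2, and 2 and 5 in DE. It did not pass the filter on low counts. Without the filter, edgeR's adjusted p was 0.0858 for D2 and 0.0661 for DE against PSC (0.0229 and 0.0237 before adjustment). A count of 0 allows a level of up to 0.263 and 0.193 CPM in the 2 PSC libraries, and the D2 and DE libraries were at 0.122 to 0.322 CPM, which lie on both sides of these limits. The difference missed the threshold after adjustment and rests on 2 to 5 counts per later library. Of the counts on *TKT* and *TKTL1* together, *TKTL1* had 0.140% (exact 95% binomial interval 0.0288% to 0.407%) and 0.226% (0.0615% to 0.577%) at D2, and 0.127% (0.0154% to 0.458%) and 0.344% (0.112% to 0.801%) in DE. In PSC, *TKTL1* had 0 of 1434 and 0 of 2148 counts, for which the same exact interval reaches 0.257% and 0.172%, and a limit of 3 counts allows a share of up to 0.209% and 0.140%. These limits cover counting error only. A further paralog of transketolase, *TKTL2*, had at most 2 counts in any library, and *RPEL1*, a paralog of *RPE*, had at most 4. The 8 pseudogenes named after *PGD*, *RPIA* and *RPE* had at most 1 count in any library. How the authors counted reads that map to several places is not stated.

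At an adjusted p under 0.05 in edgeR's fit, DE against PSC had 0 of the 5 tested genes higher (35.1% of all genes tested) and 3 lower (32.7%), and thus 3 of 5 called in either direction (67.8%). None of the 5 passed when a fold of 2 or more was also required, where 39.4% of all genes did (20.5% higher and 18.8% lower). At an unadjusted p under 0.05, 1 of the 5, *RPIA*, was higher (36.2% of all genes), and DESeq2 had 0 higher. The PSC and DE libraries did not overlap for 4 of the 5 genes (82.7% of all genes). At D2 against PSC, 0 were higher (25.9%) and 3 lower (24.0%), so 3 of 5 were called (49.9%), and 0 were higher at an unadjusted p under 0.05 (28.5% of all genes) or in DESeq2. None had a fold of 2 or more (22.3%, with 14.3% higher and 8.03% lower), and 3 of 5 did not overlap (74.6%). In DE against D2, *PGD* and *RPIA* were higher (30.0%) and *TKT* and *RPE* lower (29.3%), so 4 of 5 were called (59.3%). None had a fold of 2 or more (28.5%, with 12.4% higher and 16.1% lower), and 4 of 5 did not overlap (78.6%). With 5 genes, these counts describe the genes and were not compared with the shares by a test. The median log2 fold change of the 5 genes was -0.24 at D2 against PSC, -0.48 in DE against PSC and 0.08 in DE against D2, and that of all genes was 0.02, 0.02 and -0.02. The study defined changed genes by a fold change of at least 2 in TPM. Applied here to stage means with 0.1 added, for genes whose mean exceeded 2 TPM in either stage, this rule called none of the pathway genes at D2 against PSC (20.5% of all genes with enough TPM), in DE against PSC (39.4%) or in DE against D2 (26.8%). The comparisons with PSC share the PSC libraries.

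**Figure D2:**
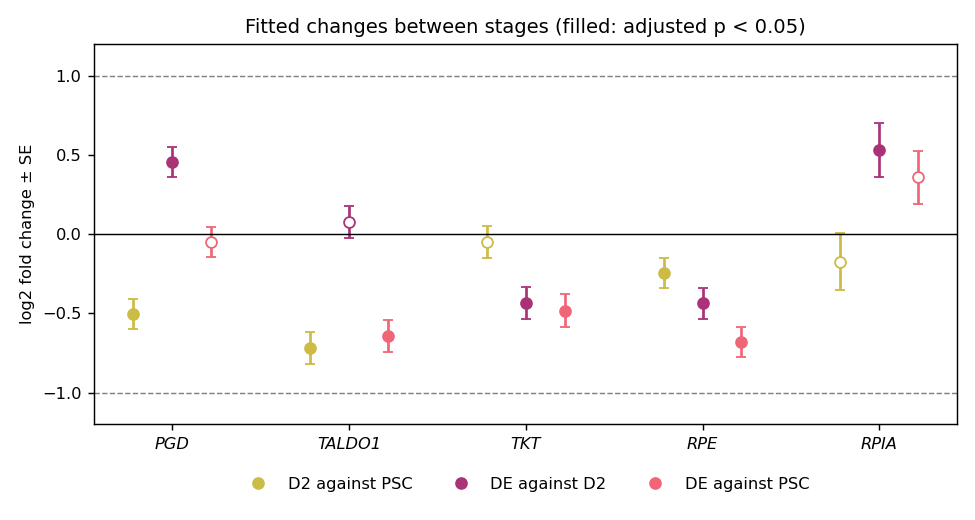
Fitted log2 fold changes with standard errors for the 5 tested pathway genes in the 3 comparisons of stages. Filled points have an adjusted p under 0.05 in edgeR's quasi-likelihood test and dashed lines mark a fold change of 2. All points lie between the dashed lines, and *PGD* changes direction between the steps.

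**Figure D3:**
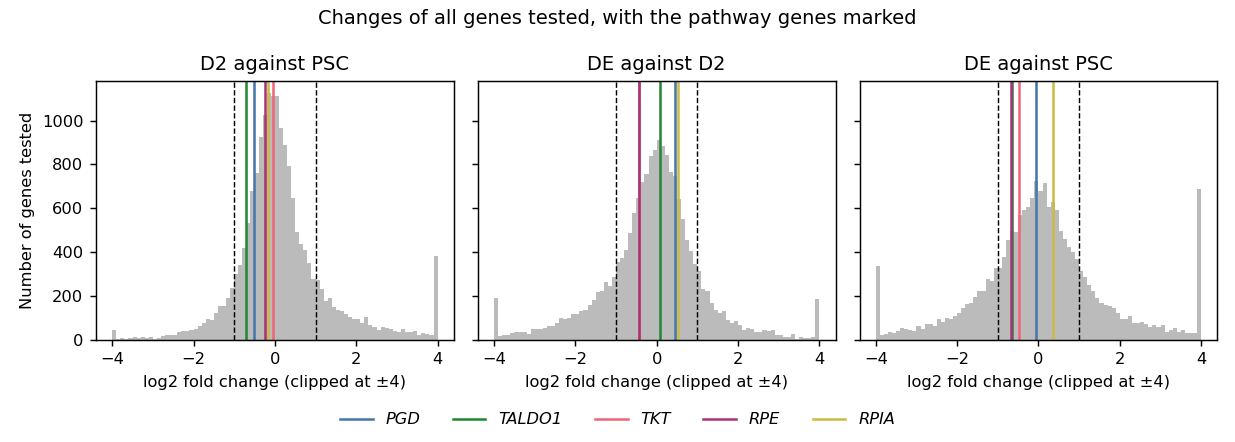
Number of genes by log2 fold change, clipped at 4 in either direction, for all 18126 genes tested in each comparison, with the 5 pathway genes as coloured lines and a fold change of 2 as dashed lines. The lines of *TKT* and *RPE* coincide in DE against D2. The pathway genes lie in the central part of each distribution.

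The balance between the RNAs of these genes within a library is given by their ratios, which are not ratios of enzyme amounts or activities. A ratio within a library does not depend on how libraries are scaled to each other. Its value depends on the gene lengths used, whereas its relative change between stages does not. With 2 libraries against 2, an exact permutation test cannot give a 2-sided p below 0.33, so the ratios are given as values. The ratio of *PGD* to *TALDO1*, in CPM per kb of gene length, was 0.973 and 1.02 in PSC, 1.12 and 1.19 at D2, and 1.58 and 1.44 in DE. It did not overlap between any of the stages and was 1.51 times the PSC mean in DE. The ratio of *PGD* to *TKT* was 3.24 and 3.10 in PSC, 2.11 and 2.55 at D2, and 4.02 and 4.53 in DE, lowest at D2 and highest in DE. *RPIA* and *RPE* encode the enzymes that both act on ribulose 5-phosphate. The ratio of *RPIA* to *RPE* was 0.182 and 0.203 in PSC, 0.221 and 0.186 at D2, and 0.407 and 0.390 in DE. It overlapped between PSC and D2 and was 2.07 times the PSC mean in DE. The ratio of *TALDO1* to *TKT* was 3.33 and 3.04 in PSC, 1.88 and 2.14 at D2, and 2.55 and 3.15 in DE, with overlap between PSC and DE.

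**Figure D4:**
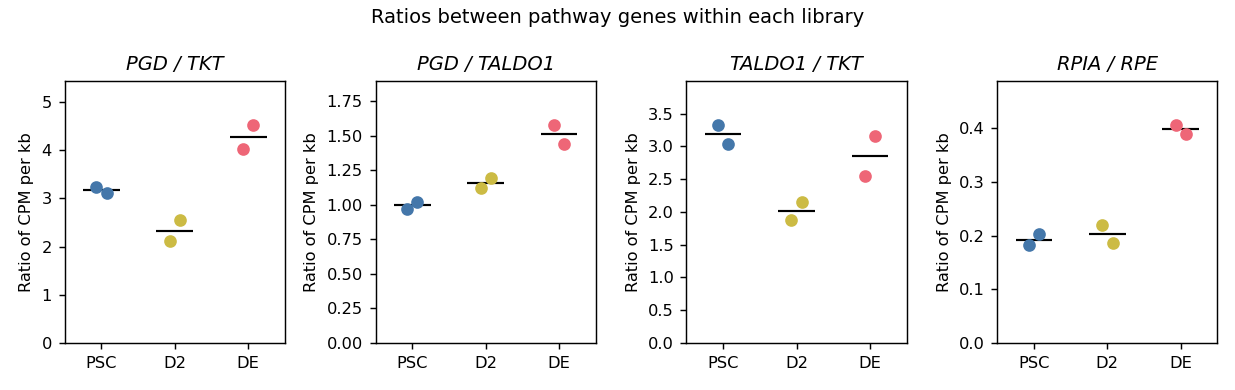
Ratios of CPM per kb between pairs of pathway genes within each library, on linear axes from 0, by stage. Points are libraries and bars the means of 2. The ratio of *RPIA* to *RPE* stands at 0.407 and 0.390 in DE and at or below 0.221 in the other 4 libraries.

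The order of the genes by level depends on the length used. With the deposited lengths, which for *PGD*, *TKT*, *TALDO1*, *RPIA* and *RPE* equal the union of all exons in GENCODE version 44, the PSC levels per kb were 44.1 ± 0.0994 CPM (SD, n = 2 libraries) for *TALDO1*, 43.98 ± 1.63 for *PGD*, 21.9 ± 0.539 for *RPE*, 13.9 ± 0.934 for *TKT* and 4.21 ± 0.419 for *RPIA*. *TALDO1* and *PGD* did not differ beyond their spread in PSC, and in DE *PGD* was first with 42.5 ± 2.77 CPM per kb, ahead of *TALDO1* with 28.3 ± 3.72. The exon union of *TKT* is 9502 bases, whereas its MANE Select transcript, the reference transcript of the gene, has 2996. Per kb of the MANE Select transcript, the PSC levels were 107 ± 0.236 CPM for *TALDO1*, 64.6 ± 2.40 for *PGD*, 41.96 and 46.13 in the 2 libraries for *TKT*, 24.2 ± 0.598 for *RPE* and 4.21 ± 0.419 for *RPIA*. In DE they were 68.6 ± 9.02 for *TALDO1*, 62.4 ± 4.08 for *PGD*, 31.5 ± 0.585 for *TKT*, 15.1 ± 0.560 for *RPE* and 5.44 ± 0.0410 for *RPIA*, and the libraries of *TALDO1* and *PGD* overlapped. On this length *TKT* passed *RPE*, and *RPIA* was last on both.

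The genes whose pattern was closest to each pathway gene were found by the Euclidean distance between gene-centred log2(CPM + 0.5) over the 6 libraries, among 8683 genes with a mean of at least 10 CPM. For *PGD* these were *WDR48* (distance 0.0724), *EIF3A* (0.0832) and *ZRSR2* (0.0938), and *EIF3A*, a translation initiation factor, was at 227 CPM in PSC, 167 at D2 and 223 in DE. For *TKT* they were *GPCPD1* (0.108), *FOXH1* (0.129), a partner of SMAD proteins in Nodal signaling, and *MFSD12* (0.129). For *TALDO1* they were the proteasome activator gene *PSME2* (0.118), *TIMM50* (0.122), of the mitochondrial import machinery, and *CTSC* (0.129). For *RPE* they were *SET* (0.0681), *MGME1* (0.0798), a nuclease of mtDNA maintenance, and *ZWINT* (0.109), a kinetochore gene. *RPIA* was below 10 CPM at every stage and was left out of this search. Among the pathway genes themselves, *TKT* and *RPE* were closest (distance 0.285) and *RPIA* and *RPE* farthest apart (1.15).

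Of the genes next to the pathway, 18 were listed by function, and 14 passed the filter. This list and those of nucleotide synthesis, thiamine supply, NADPH sources and redox enzymes were chosen with earlier results of these data known. Their counts therefore describe the listed genes and were not compared with the shares of all genes by a test. In DE against PSC, 8 rose and 3 fell, with a median log2 fold change of 0.56 (35.1% and 32.7% of all genes were higher and lower, with a median of 0.02). At D2 against PSC, 1 rose and 1 fell (25.9% of all genes were higher and 24.0% lower), each 0 or 1 over the alternatives run. *PGM1*, a phosphoglucomutase, had 15.8 and 16.5 CPM in PSC, 22.9 and 19.3 CPM at D2, and 88.2 and 91.1 CPM in DE, with DE exceeding PSC by 2.47 on the log2 scale (standard error 0.113, edgeR adjusted p = 3.5e-17). Its paralog *PGM2*, which acts on pentose phosphates, had 36.6 and 36.5 CPM in PSC and 36.5 and 36.2 CPM in DE (log2 fold change -0.01, edgeR adjusted p = 0.943). *DERA*, which splits deoxyribose 5-phosphate, had 30.4 and 28.5 CPM in PSC, 32.6 and 30.3 CPM at D2, and 102 and 112 CPM in DE. Both DE libraries were above the others, and the log2 fold change against PSC was 1.86 (standard error 0.103, edgeR adjusted p = 2.6e-15). *SHPK*, the kinase of sedoheptulose, rose by 1.17 on the log2 scale from PSC to DE and *RBKS*, ribokinase, by 0.98 (adjusted p = 0.0105 in edgeR and 0.0728 in DESeq2), at levels of 1.18 to 3.96 CPM. *H6PD*, of an oxidative branch in the endoplasmic reticulum, rose from 5.17 and 5.60 CPM in PSC to 11.8 and 8.94 CPM in DE (log2 fold change 0.94, edgeR adjusted p = 5.0e-05). *TIGAR*, a phosphatase known to favour flow into the pathway, had a log2 fold change of 0.66 (edgeR adjusted p = 0.0013). *GPI*, which converts glucose 6-phosphate to fructose 6-phosphate in glycolysis, had a log2 fold change of -0.20 (edgeR adjusted p = 0.0932).

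Ribose 5-phosphate leaves the pathway for nucleotides through PRPP synthetase, whose catalytic subunits fell while its associated proteins rose. *PRPS1* had 112 and 107 CPM in PSC, 97.9 and 99.3 CPM at D2, and 59.7 and 70.4 CPM in DE (log2 difference of DE and PSC -0.75, standard error 0.0990, edgeR adjusted p = 1.6e-07). *PRPS2* had 13.9 and 12.6 CPM in PSC and 7.31 and 6.95 CPM in DE (-0.88, standard error 0.155, edgeR adjusted p = 1.5e-05). Both DE libraries were below both PSC libraries for each gene. *PRPSAP1*, whose product associates with the synthetase, had 7.19 and 8.04 CPM in PSC and 16.6 and 15.4 CPM in DE (1.06, standard error 0.152, edgeR adjusted p = 6.0e-07), and *PRPSAP2* had a log2 fold change of 0.45 (edgeR adjusted p = 0.0010). *GLYCTK*, glycerate kinase, fell by 1.41 on the log2 scale. *IDNK*, gluconokinase, had 0.10 (edgeR adjusted p = 0.831), and *TKTL2*, *RPEL1*, *PRPS1L1* and *RGN* did not pass the filter.

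**Figure D5:**
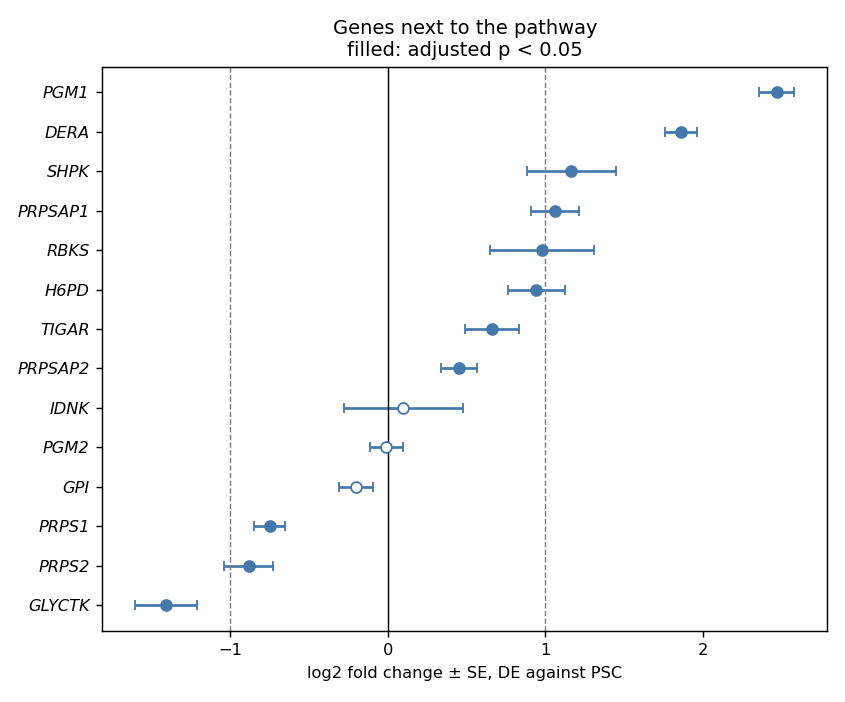
Log2 fold changes with standard errors in DE against PSC for the 14 tested genes next to the pathway. Filled points have an adjusted p under 0.05 in edgeR's quasi-likelihood test and dashed lines mark a fold change of 2. *PGM1* and *DERA* rise most, and *PRPS1*, *PRPS2* and *GLYCTK* fall.

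Of the 16 tested genes of de novo purine and pyrimidine synthesis, pathways that consume PRPP, 2 rose and 11 fell in DE against PSC, with a median log2 fold change of -0.73 (35.1% of all genes were higher and 32.7% lower, with a median of 0.02). Over the alternatives run, 0 to 2 were higher, with 0 without PSC replicate 1, and 11 to 12 lower. Their summed level was 2299 and 2196 CPM in PSC, 2018 and 1977 CPM at D2, and 1296 and 1403 CPM in DE, and *PAICS* had the most counts in every library. *PPAT*, the committed enzyme of purine synthesis, had 129 and 135 CPM in PSC, 94.7 and 98.0 CPM at D2, and 64.1 and 58.5 CPM in DE (log2 difference of DE and PSC -1.10, standard error 0.0958, edgeR adjusted p = 5.4e-11). *PFAS* fell by 2.02 and *ADSL* by 1.49 on the log2 scale, both enzymes of purine synthesis. The rises were those of *ADSSL1* (1.34) and *CTPS2* (0.30). *ADSSL1* rested on low counts, 5 and 16 in PSC and 38 and 25 in DE. *CTPS2* had 0.13 with the upper quartile (edgeR adjusted p = 0.238). At D2 against PSC, 2 genes rose and 9 fell (25.9% and 24.0% of all genes), and in DE against D2, 3 rose and 9 fell (30.0% and 29.3%).

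Transketolase needs thiamine diphosphate. *SLC19A2*, a thiamine transporter, had 19.2 and 20.3 CPM in PSC, 21.6 and 22.0 CPM at D2, and 9.62 and 8.24 CPM in DE. Both DE libraries were below the other 4, and the log2 fold change against PSC was -1.14 (standard error 0.139, edgeR adjusted p = 3.5e-08). *SLC19A3*, another transporter of thiamine, stood at -0.66 on the same scale between these stages (edgeR adjusted p = 0.215). *THTPA*, thiamine triphosphatase, had -0.33 (edgeR adjusted p = 0.408).

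NADPH has sources other than this pathway. Of 9 tested genes of such sources and of NADP synthesis, 2 rose and 5 fell in DE against PSC, with a median log2 fold change of -0.35 (35.1% of all genes were higher and 32.7% lower). The number higher ranged from 1 to 4 over the alternatives run. *MTHFD1*, a folate enzyme, fell by 0.98, *NADK*, the cytosolic NAD kinase, by 0.93 and *ALDH1L2*, a mitochondrial folate enzyme, by 2.62 on the log2 scale. *NADK2*, the mitochondrial NAD kinase, rose by 0.78 and *ME3*, a mitochondrial malic enzyme, by 1.08 from 7 to 13 counts per PSC library, with an adjusted p of 0.0411 in edgeR, 0.182 in DESeq2, 0.0866 with the upper quartile and 0.0635 with the replicate number as a block. Of 8 tested redox enzymes and regulators around NRF2, 3 rose and 3 fell in DE against PSC, a share near the 67.8% called among all genes. *NFE2L2*, which encodes NRF2, had 34.9 and 32.2 CPM in PSC, 47.2 and 40.3 CPM at D2, and 156 and 184 CPM in DE, whereas *NQO1*, a textbook target of NRF2, had 62.4 and 60.6 CPM in PSC and 31.4 and 40.5 CPM in DE (log2 fold change -0.77, edgeR adjusted p = 7.2e-07). *GCLM* and *GCLC*, the subunits of the first enzyme of glutathione synthesis, fell by 0.81 and 0.25, the latter with an adjusted p of 0.0281 in edgeR and 0.0628 in DESeq2. *GSR*, glutathione reductase, which uses NADPH, rose by 0.65, and *TXNRD2* had 0 and 1 count in PSC and 24 and 27 in DE.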

How the data were processed

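The authors aligned the reads to hg38 (GRCh38) with HISAT2 2.1.1 and counted reads per gene with featureCounts. The deposited table holds these raw counts by gene symbol, 1 column per library, beside a gene length in bases. The annotation, the strand setting and the treatment of reads mapping to several places are not given in the sources used here. The pathway genes and the other lists were chosen with earlier results of these data known.

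The tests used the quasi-likelihood functions of edgeR 4.0.16 (R 4.3.3) on all 6 libraries together, after filterByExpr with a minimum count of 10 and with TMM factors (3 residual degrees of freedom, common biological coefficient of variation 0.0734), with Benjamini-Hochberg adjustment over 18126 genes. Standard errors were obtained from the log2 fold change and the F statistic. CPM used the TMM-scaled library sizes. TPM used the deposited lengths. The named genes were all pathway genes, the genes next to the pathway and of thiamine supply, up to 3 rises and 3 falls of each other list, pseudogenes by symbol, and the 3 nearest genes by pattern. *KANSL1L*, *PAICS* and the stage and lineage markers, which lie outside this rule in the comparisons where they are named, were picked with their values known, and every motif but the antioxidant response element was added after the files were seen. Some genes of thiamine supply are not reported here. Coordinates came from GENCODE version 44. The fit was tested on data simulated with 1 dispersion for all genes. In DE against PSC it called 74% of 100 genes changed by a log2 of 1 and 96% of 100 changed by 2. Changes as small as those of the pathway genes were not simulated.

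The alternatives were DESeq2 1.42.0, other scalings, other filters on low counts, the replicate number as a block, the 2 compared stages alone and each library left out in turn. The MANE Select length was added after the data were seen. Python 3.11.15, pandas 2.3.3 and matplotlib 3.10.9 were used for sequences and figures.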

Additional observations from a re-analysis of the deposited data

How the results depend on the processing

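Deviations from the stage means were not shared by libraries of the same replicate number (correlation across genes of -0.0109 between PSC and D2, -0.0383 between PSC and DE, -0.0432 between D2 and DE), so the numbers were not taken to pair the samples. With the replicate number as a block, the 1 pathway call lost was *RPE* in D2 against PSC (-0.24, adjusted p = 0.0593), which left 2 lower there. Library size alone moved the median of all genes by 0.109 at D2 against PSC, and the upper quartile moved it by -0.172 in DE against PSC and -0.173 in DE against D2 (log2). With library size alone, *RPIA* was called higher in DE against PSC (0.45, adjusted p = 0.0354), which made 1 gene higher in place of 0, and *PGD* had 0.039 there and *TKT* 0.059 at D2. The number higher in DE against D2 was 1 in place of 2 with DESeq2 and with the upper quartile, where *RPIA* missed the threshold, and *TALDO1* had -0.097 with the upper quartile. Without a TPM minimum, the fold-change rule called 1 gene, *TKTL1*, at D2 and in DE against PSC, where its PSC TPM is 0 and the ratio is set by the pseudocount. The share of *TKTL1* in the counts of *TKT* and *TKTL1*, as a mean over the D2 and DE libraries, was 0.561% per kb and 0.209% without gene lengths. With 1 library left out, which leaves a stage with a single library assumed to vary like the others, *TKT* in D2 against PSC ranged from -0.20 to 0.098, *PGD* in DE against PSC from -0.105 to 0.029 and *TALDO1* in DE against D2 from -0.047 to 0.221. The numbers higher and lower in DE against D2 each ranged from 1 to 2, with *RPIA* lost without D2 replicate 2 and *TKT* without D2 replicate 1. The alternatives run for the ratios between genes, gene lengths that cancel and 1 of 2 libraries left out, are no test of their stability. *RPIA* and *TKTL1* are limited by their low counts.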
